A study of Mus musculus with 18 samples.

Results

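Nr4a1, Nr4a2, Nr4a3, Bhlhe40, Rasgef1b, Cd83, Sdc4, Il10, Tnfsf11 and Ramp3 are 10 signal-induced genes whose RNA was lowest in replicate number 3 of both genotypes in multipotent progenitors (MPPs) and CD115- common dendritic cell progenitors (CD115- CDPs). They were chosen by their FPKM in these same 18 libraries, for that pattern, and all 10 were found by symbol in each of the 3 tables, which hold 19710 genes for MPPs and for CD115- CDPs and 18378 for common lymphoid progenitors (CLPs). MPPs (Lin- Sca-1+ CD117hi CD34+ FLT3+), CD115- CDPs (Lin- CD11c- CD127- CD117int FLT3+ CD115-) and CLPs were sorted from bone marrow of C57BL/6 mice aged 6 to 8 weeks that carried Trim33 fl/fl, either alone (WT) or with Cre-ERT2 (KO). Tamoxifen, which activates Cre-ERT2 in every cell that carries it and is not limited to blood cells, was given at 2 mg on each of 5 days and followed by 7 days of rest, and the WT mice were treated too. Each genotype and population had 3 libraries, numbered 1 to 3 and described as biological repeats, 18 in all; whether a library came from 1 mouse or a pool was not stated in the sources used here. Libraries held an estimated 19.2 to 21.2 M mapped reads (M, 1e6), so depth varied little. Values are the deposited FPKM, a read count scaled by transcript length and by the mapped reads of the library. Differences are on the log2(FPKM + 1) scale, on which changes of weakly expressed genes come out too small.

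Genes of this kind are switched on within hours when a blood cell receives a signal. The NR4A receptors are orphan nuclear receptors induced by antigen receptor, calcium and cAMP signals without need for new protein, and several of the others (Cd83, Il10, Tnfsf11, Bhlhe40) are induced later in activated lymphoid and myeloid cells. In resting progenitors such transcripts are usually low.

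Trim33 itself was examined first. FPKM counts reads over the whole transcript, and reads over the floxed part alone were not analysed here. In MPPs the WT libraries 1, 2 and 3 had 10.4, 10.1 and 8.78 FPKM of Trim33, and the libraries labelled KO had 9.71, 11.7 and 4.80 FPKM. The genotypes overlapped there, so the MPP values do not check the labels, and those libraries are called KO by their labels. Trim33 in CD115- CDPs was 14.3, 15.2 and 8.27 FPKM in WT and 9.64, 8.28 and 4.03 FPKM in KO libraries, lower in KO within each number. The genotypes overlapped there too, with KO 1 and 2 above WT 3. The log2 fold change in CD115- CDPs was -0.74 (SE 0.358), and its limma adjusted p was 0.528 without and 0.0258 with the replicate number as a block. CLPs had 12.4, 7.01 and 8.86 FPKM of Trim33 in WT and 7.52, 5.6 and 7.66 FPKM in KO libraries, and the genotypes overlapped, with KO 1 and 3 above WT 2. The log2 fold change in CLPs was -0.37 (SE 0.199), and its limma adjusted p was 0.255 without and 0.0727 with the block.

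The common pattern was a fall from replicate numbers 1 and 2 to number 3 in MPPs and CD115- CDPs, in both genotypes. All 10 genes were lowest in number 3 in the WT and in the KO libraries of both populations. These values chose the genes and are a description, without a test. Leaving aside Ramp3, whose lowest values rest on few reads, the mean of numbers 1 and 2 was 9.99 to 309 times number 3 in WT CD115- CDPs, with a median of 58.1 over 9 genes. KO CD115- CDPs had 8.15 to 195 times, with a median of 29.5. Some of these ratios also rest on low values in number 3. In WT CD115- CDP 3 Il10 and Tnfsf11 had about 7 and 17 estimated reads, and Nr4a3 had 0.24 FPKM. In MPPs the ratio was smaller in WT, 1.47 to 11.5 with a median of 2.69, than in KO libraries, 4.99 to 102 with a median of 8.08. CLPs lacked the pattern: the median ratio was 0.861 in WT and 0.795 in KO libraries, and number 2 was the lowest for 7 of 10 genes in WT and 9 of 10 in KO libraries. The 3 populations are in separate tables, so levels set across them are descriptive. Fewer cells of a type that expresses a gene and less RNA per cell cannot be told apart in these bulk libraries.

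**Figure D1:**
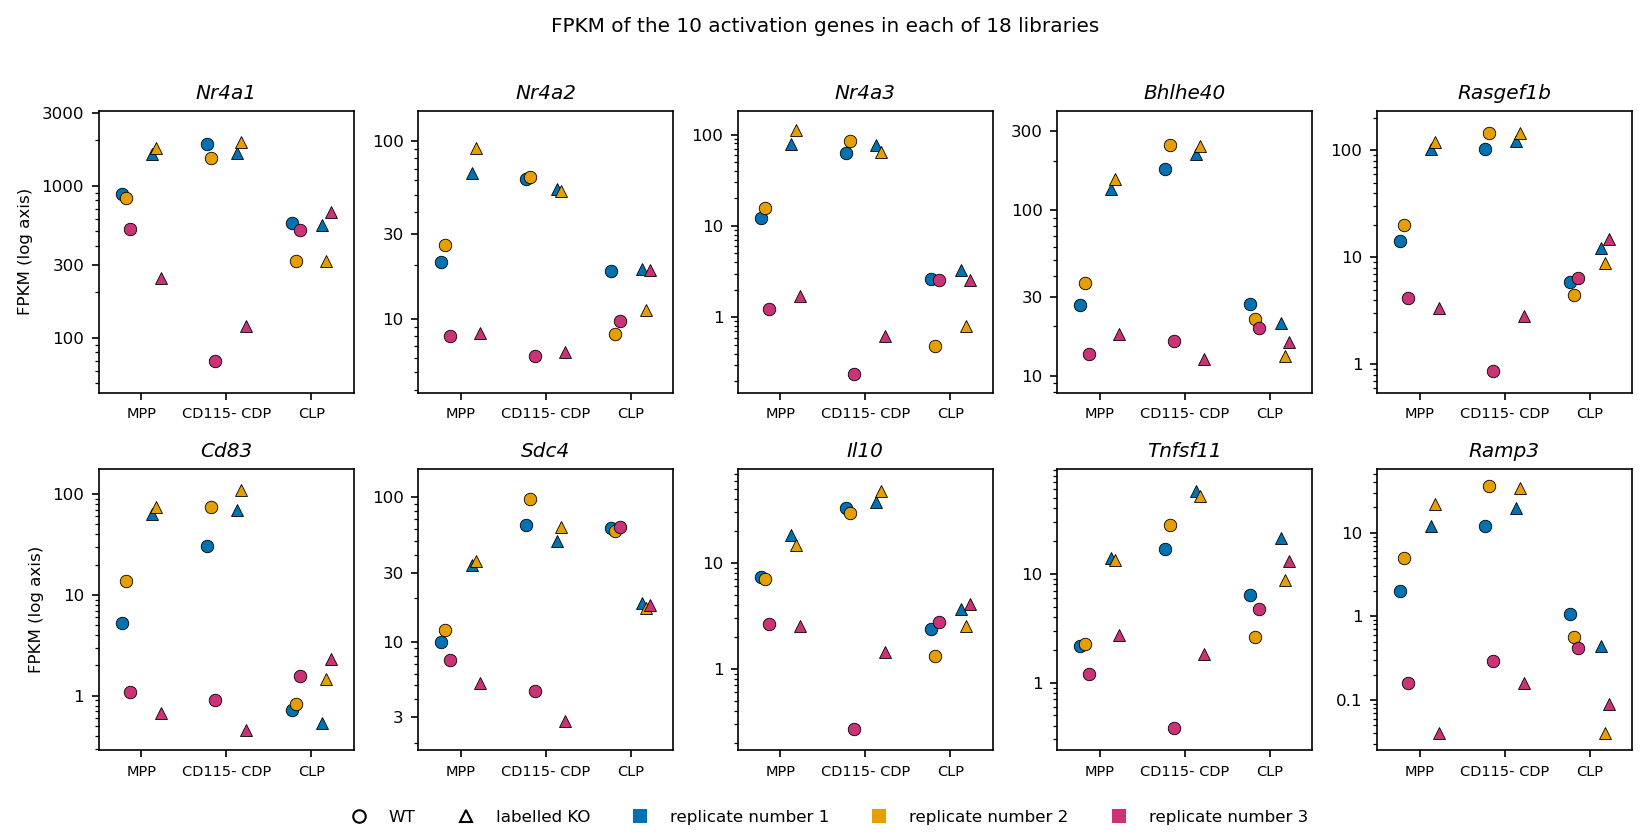
FPKM of each of the 10 genes (log axis, a scale of its own for each gene) in the 18 libraries, with circles for WT, triangles for libraries labelled KO and colours for the replicate number. In CD115- CDPs and MPPs the number 3 libraries of both genotypes lie below numbers 1 and 2 for all 10 genes, while in CLPs number 3 is not set apart.

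Among the NR4A receptors Nr4a1 (Nur77, Entrez 15370, chromosome 15 from 101253902 to 101274795 in GRCm38.p6) was the most abundant of the 10 genes in every library. In CD115- CDPs it had 1866, 1528 and 69.7 FPKM in WT libraries 1, 2 and 3 and 1633, 1928 and 120 FPKM in KO libraries. Numbers 1 and 2 were thus high and number 3 low in both genotypes, and the genotypes overlapped. Nr4a1 in MPPs was 875, 828 and 515 FPKM in WT and 1615, 1760 and 246 FPKM in KO libraries. There KO 1 and 2 exceeded every WT library while KO 3 lay below every WT library. CLPs held 566, 319 and 514 FPKM of Nr4a1 in WT and 551, 322 and 670 FPKM in KO libraries, with number 2 lowest in both.

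Nr4a2 (Nurr1, Entrez 18227, chromosome 2 from 57106830 to 57124003) and Nr4a3 (Nor1, Entrez 18124, chromosome 4 from 48045078 to 48086447) are its close relatives. For Nr4a2 the CD115- CDP libraries held 61.0, 62.3 and 6.17 FPKM in WT and 53.5, 52.4 and 6.49 FPKM in KO. The same-numbered libraries differed by at most 1.19-fold there, and number 3 lay far below in both. In MPPs Nr4a2 was 20.9, 25.9 and 8.00 FPKM in WT and 65.8, 91.9 and 8.30 FPKM in KO libraries, and in CLPs 18.7, 8.19 and 9.68 FPKM in WT and 19.1, 11.2 and 18.7 FPKM in KO. Number 3 was the same in both MPP genotypes to within 1.04-fold, and the difference between genotypes lay in numbers 1 and 2.

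Among the NR4A genes Nr4a3 had the widest range by fold. WT CD115- CDPs had 63.1, 85.1 and 0.24 FPKM of Nr4a3, and KO CD115- CDPs 76.6, 64.7 and 0.62 FPKM. In MPPs it was 12.3, 15.9 and 1.22 FPKM in WT and 78.4, 113 and 1.69 FPKM in KO libraries. Number 3 was near the bottom of the scale in both populations and both genotypes. CLPs had 2.63, 0.49 and 2.54 FPKM in WT and 3.31, 0.81 and 2.59 FPKM in KO libraries, so only number 2 was low there.

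The 3 NR4A genes moved together, and their promoters are shown because they share a sequence that the choice of genes did not use. The shortened CRE motif (TGACG, or CGTCA on the other strand), which CREB family factors bind, had 4 matches in the RefSeq window from 250 bases before to 50 after the start of each of the 3 genes. Of 32851 mouse promoter windows 20.8% held at least 1 match and 0.231% held 4 or more. The limit of 4 is the count found in these 3 genes, and the motif was 1 of several searched, so these shares are a description. In the 250 bases before the start of each gene below, capitals mark these matches; the windows are chr15:101266596-101266845 on the + strand for Nr4a1, chr2:57124004-57124253 on the - strand for Nr4a2 and chr4:48045055-48045304 on the + strand for Nr4a3, 5′ to 3′ on the strand of the gene.
Nr4a1: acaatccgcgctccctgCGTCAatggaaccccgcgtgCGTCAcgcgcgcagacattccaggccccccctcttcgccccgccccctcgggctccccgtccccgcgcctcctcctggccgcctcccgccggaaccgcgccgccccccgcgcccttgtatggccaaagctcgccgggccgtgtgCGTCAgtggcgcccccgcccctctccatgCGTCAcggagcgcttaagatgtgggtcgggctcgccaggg
Nr4a2: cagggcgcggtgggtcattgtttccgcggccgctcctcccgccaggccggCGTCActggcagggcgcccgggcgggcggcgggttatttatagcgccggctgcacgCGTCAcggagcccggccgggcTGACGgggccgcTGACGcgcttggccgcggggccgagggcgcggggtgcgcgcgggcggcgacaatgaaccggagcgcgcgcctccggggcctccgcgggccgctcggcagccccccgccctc
Nr4a3: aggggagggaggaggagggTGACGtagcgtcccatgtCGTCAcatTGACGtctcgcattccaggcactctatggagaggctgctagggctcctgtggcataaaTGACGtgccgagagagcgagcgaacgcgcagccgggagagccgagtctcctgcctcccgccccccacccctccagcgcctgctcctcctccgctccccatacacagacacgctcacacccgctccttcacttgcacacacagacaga
Rasgef1b had 1 match, and Tnfsf11, Sdc4 and Ramp3 had 0. These genes were also lowest in number 3 of MPPs and CD115- CDPs. The full CRE (TGACGTCA), AP-1 (TGANTCA), NBRE (AAAGGTCA), E-box (CACGTG) and CArG box motifs had 0 matches in the windows of these 7 genes. The NFAT core (GGAAA), held by 61.3% of all windows, matched in Nr4a2, Tnfsf11, Rasgef1b and Sdc4 and not in Nr4a1, Nr4a3 or Ramp3. RefSeq windows for Cd83, Il10 and Bhlhe40 were not used here. A match describes letters in a window and is not a bound site.

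Bhlhe40 (Entrez 20893, chromosome 6 from 108660629 to 108666925) encodes a basic helix-loop-helix repressor that also takes part in the circadian clock. Its CD115- CDP values were 178.8, 248.6 and 16.3 FPKM in WT and 219, 243 and 12.6 FPKM in KO libraries. In MPPs Bhlhe40 was 26.6, 36.2 and 13.5 FPKM in WT and 135, 155 and 17.9 FPKM in KO, so that KO exceeded WT in all 3 numbers. CLPs showed the opposite order, with 27.0, 21.9 and 19.5 FPKM in WT and 20.9, 13.2 and 16.0 FPKM in KO libraries, KO lower in all 3 numbers.

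Rasgef1b (Entrez 320292, chromosome 5 from 99217420 to 99252927) encodes an exchange factor for a Ras family GTPase. WT CD115- CDPs had 102, 145 and 0.87 FPKM of it and KO CD115- CDPs 122, 145 and 2.82 FPKM. Its MPP values were 14.3, 20.1 and 4.14 FPKM in WT and 102, 121 and 3.36 FPKM in KO libraries. KO MPPs 1 and 2 lay above every WT MPP library, and KO MPP 3 lay below them all. In CLPs Rasgef1b was 5.90, 4.48 and 6.35 FPKM in WT and 12.2, 8.82 and 14.8 FPKM in KO libraries, and there all KO libraries lay above all WT libraries.

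Cd83 (Entrez 12522, chromosome 13 from 43785112 to 43803133) encodes a surface protein of activated dendritic and B cells. It was 30.6, 74.0 and 0.90 FPKM in WT and 69.6, 110 and 0.46 FPKM in KO CD115- CDPs. In MPPs Cd83 was 5.29, 13.7 and 1.09 FPKM in WT and 63.3, 74.8 and 0.68 FPKM in KO libraries. The gap between KO 1 and WT 1 in MPPs, 11.97-fold, was the widest of the same-numbered gaps in which KO was higher. CLPs held low levels, 0.72, 0.83 and 1.56 FPKM in WT and 0.54, 1.47 and 2.34 FPKM in KO libraries, with number 1 lowest.

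Sdc4 (syndecan 4, Entrez 20971, chromosome 2 from 164424247 to 164443188) encodes a heparan sulphate proteoglycan of the cell surface. Its CD115- CDP values were 64.1, 97.4 and 4.60 FPKM in WT and 49.8, 61.7 and 2.84 FPKM in KO libraries, KO lower in all 3 numbers. In MPPs it was 9.97, 12.1 and 7.50 FPKM in WT and 33.9, 36.1 and 5.22 FPKM in KO. CLPs stood apart in 2 ways: Sdc4 barely varied with the number, and WT libraries (60.9, 57.8 and 61.9 FPKM) did not overlap KO libraries (18.7, 17.0 and 17.8 FPKM). The Sdc4 promoter is shown because it held a match of the NF-kB motif, as did those of Nr4a1 and Ramp3 among the 7 windows and 8.46% of all windows. Capitals mark the match, which starts 82 bases before the gene, in the 250 bases of chr2:164443189-164443438 on the - strand.
Sdc4: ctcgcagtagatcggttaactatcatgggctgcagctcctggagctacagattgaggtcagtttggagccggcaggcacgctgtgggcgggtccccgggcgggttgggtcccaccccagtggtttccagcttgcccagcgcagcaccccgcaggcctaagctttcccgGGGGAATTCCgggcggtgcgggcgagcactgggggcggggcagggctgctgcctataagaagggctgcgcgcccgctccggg

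Il10 (Entrez 16153, chromosome 1 from 131019845 to 131024970) and Tnfsf11 (RANKL, Entrez 21943, chromosome 14 from 78277446 to 78308043) encode secreted or shed cytokines, the first damping inflammation and the second driving osteoclasts and lymph node formation. Il10 in CD115- CDPs was 33.2, 29.8 and 0.27 FPKM in WT and 37.8, 48.2 and 1.45 FPKM in KO libraries. MPPs had 7.37, 7 and 2.67 FPKM of Il10 in WT and 18.4, 14.7 and 2.53 FPKM in KO, and CLPs 2.35, 1.33 and 2.78 FPKM in WT and 3.70, 2.56 and 4.13 FPKM in KO. KO exceeded WT within the number in 8 of 9 pairs of Il10. Tnfsf11 in CD115- CDPs was 17.1, 28.3 and 0.38 FPKM in WT and 57.5, 51.7 and 1.85 FPKM in KO libraries. In MPPs it was 2.18, 2.24 and 1.19 FPKM in WT and 14.1, 13.4 and 2.75 FPKM in KO, and all KO libraries lay above all WT libraries. Tnfsf11 in CLPs was 6.44, 2.65 and 4.73 FPKM in WT and 21.2, 8.71 and 13.2 FPKM in KO libraries. It was the only one of the 10 genes in which KO exceeded WT in all 9 same-numbered pairs, by 1.83- to 6.46-fold.

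Ramp3 (Entrez 56089, chromosome 11 from 6658506 to 6677478) encodes a partner of the calcitonin and adrenomedullin receptors. In CD115- CDPs it was 12.1, 36.0 and 0.29 FPKM in WT and 19.5, 33.9 and 0.16 FPKM in KO libraries. Number 1 had less than number 2 in both genotypes here. MPPs had 2.03, 5.03 and 0.16 FPKM of Ramp3 in WT and 11.9, 22.2 and 0.04 FPKM in KO libraries. The KO MPP 3 value corresponds to about 1 read and the WT MPP 3 value to about 4, so no fold against them is given. In CLPs Ramp3 was 1.06, 0.56 and 0.42 FPKM in WT and 0.44, 0.04 and 0.09 FPKM in KO libraries, below the mean of 0.5 FPKM required for testing.

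Set side by side by number, the genotypes differed in a way that depended on the population. In MPPs all 10 genes were higher in KO 1 than in WT 1, with a median difference of 2.17 on the log2 scale, and all 10 were higher in KO 2 than in WT 2, with a median of 2.01. Only 4 of 10 were higher in KO 3 than in WT 3, where the median was -0.11. CD115- CDPs had 7, 5 and 6 of 10 genes higher in KO 1, 2 and 3, with medians of 0.26, -0.01 and 0.22. In CLPs the counts were 5, 7 and 7 of 10, and the medians were 0.00, 0.34 and 0.38.

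**Figure D2:**
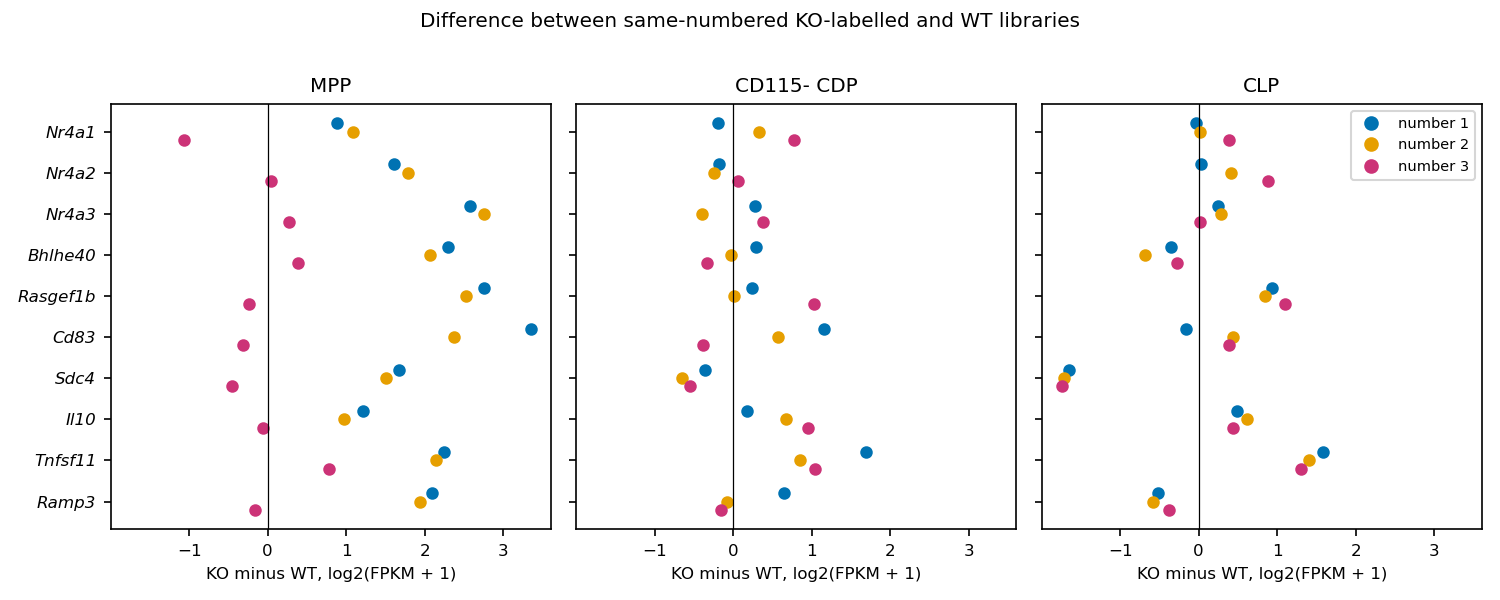
Difference between the library labelled KO and the WT library of the same replicate number, on the log2(FPKM + 1) scale, for each of the 10 genes in each population, with colours for the number. In MPPs numbers 1 and 2 lie above 0 for all 10 genes and number 3 spreads around 0, and Tnfsf11 lies above 0 in all 9 pairs.

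The genotype contrast asks whether loss of Trim33 changed these genes. limma tested the genes whose mean in a population reached 0.5 FPKM, and a call needed an adjusted p no higher than 0.05 together with a log2 fold change of 1 or more in either direction. In MPPs 0 of the 10 genes were called, where 0.162% of 12372 genes were called higher and 1.32% lower. Their median log2 fold change was 1.44 against -0.11 over all tested genes, but standard errors ran from 0.539 to 1.53. Tnfsf11 came nearest, with a log2 fold change of 1.72 (SE 0.539) and an adjusted p of 0.127 in limma, and was the only one of the 10 with an unadjusted p under 0.05. The others had adjusted p of 0.273 to 0.807. Of all 12372 genes, 2999 had an unadjusted p under 0.05 in limma. The absence of calls depended on the library KO MPP 3: without it all 10 genes were called higher, with log2 fold changes from 1.23 for Nr4a1 to 3.60 for Cd83. The genes were chosen for low values in number 3, so leaving out KO 3 alone raises their KO mean. This count and the one below without number 3 are therefore a description. Calls rose over all genes too in that fit, to 2.97% higher and 4.43% lower. Without number 3 of both genotypes, an alternative added after seeing the data, 9 of 10 genes were called higher and 0 lower, where 2.21% of all genes were higher and 4.21% lower, and the remaining Nr4a1 had a log2 fold change of 0.98. Without number 1 of both genotypes 0 of 10 were called, as were 0 of all genes, and without number 2 of both genotypes 0 of 10, where 0.0649% of genes were higher and 0.0243% lower.

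In CD115- CDPs 0 of 10 genes were called, where 0.0409% of 12229 genes were called higher and 0.0654% lower. An unadjusted p under 0.05 in limma was found for 0 of the 10 and for 1288 of all genes. Standard errors of the 10 genes, 1.11 to 2.10, were the widest of the 3 populations, and log2 fold changes ran from -0.52 for Sdc4 to 1.2 for Tnfsf11. Number 3 stood apart in both genotypes of this population, while numbers 1 and 2 were hardly told apart as pairs. Over all genes, deviations of WT 2 from its genotype mean correlated with those of KO 1 at 0.663. Those of WT 1 and KO 1 correlated at 0.437. The block was used with that limit. With the number as a block the standard errors fell to between 0.105 and 0.270, and the genes had been chosen for following the number, and Tnfsf11 was called higher at 1.2 (SE 0.176, adjusted p 0.0209), where 0.376% of all genes were higher and 1.46% lower. With the block Sdc4 had an adjusted p of 0.0367 with a log2 fold change of -0.52, under the fold limit. Without number 3 of both genotypes Tnfsf11 was also called, at 1.27 (adjusted p 0.0221), where 0.554% were higher and 1.29% lower, and Sdc4 had an adjusted p of 0.203.

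CLPs, in which the number moved these genes least, gave 2 calls among the 9 genes tested. Sdc4 was lower in KO, at 17.8 ± 0.830 against 60.2 ± 2.14 FPKM (SD, n = 3 each), a log2 fold change of -1.70 (SE 0.0906, adjusted p 9.8e-06 in limma), where 2.84% of 12339 genes were called lower. It kept this call in every alternative, with an adjusted p of 2.1e-06 to 0.00016 in the planned ones and up to 0.0019 without a number in both genotypes. Tnfsf11 was higher, at 14.4 ± 6.33 against 4.61 ± 1.90 FPKM, a log2 fold change of 1.43 (SE 0.331, adjusted p 0.0231), where 0.673% of genes were called higher. The call was lost without a filter on expression (adjusted p 0.070) and without any one of KO 1, KO 3, WT 2 or WT 3 (0.058, 0.070, 0.081 and 0.060), and without number 3 of both genotypes the adjusted p was 0.150. With the replicate block it was 9.9e-05, where 0.746% of genes were called higher and 3.11% lower. The block rests on weak pairing in CLPs: deviations of WT 3 correlated at 0.131 with KO 3 and at 0.234 with KO 2. Without number 1, 2 or 3 of both genotypes 1, 2 and 0 of the genes were called higher, where 0.935%, 0.568% and 0.525% of all genes were, and 1 lower each time, Sdc4, where 3.1%, 2.7% and 2.73% were. Rasgef1b had 11.9 ± 2.98 against 5.58 ± 0.976 FPKM, a log2 fold change of 0.96 (SE 0.192, adjusted p 0.0126), just under the fold limit. Bhlhe40 and Il10 had adjusted p of 0.144 and 0.147, and 0.0315 and 0.0198 with the block, with log2 fold changes of -0.44 and 0.51. Nr4a1, Nr4a2, Nr4a3 and Cd83 had log2 fold changes of 0.12 to 0.44 and adjusted p of 0.366 to 0.830.

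**Figure D3:**
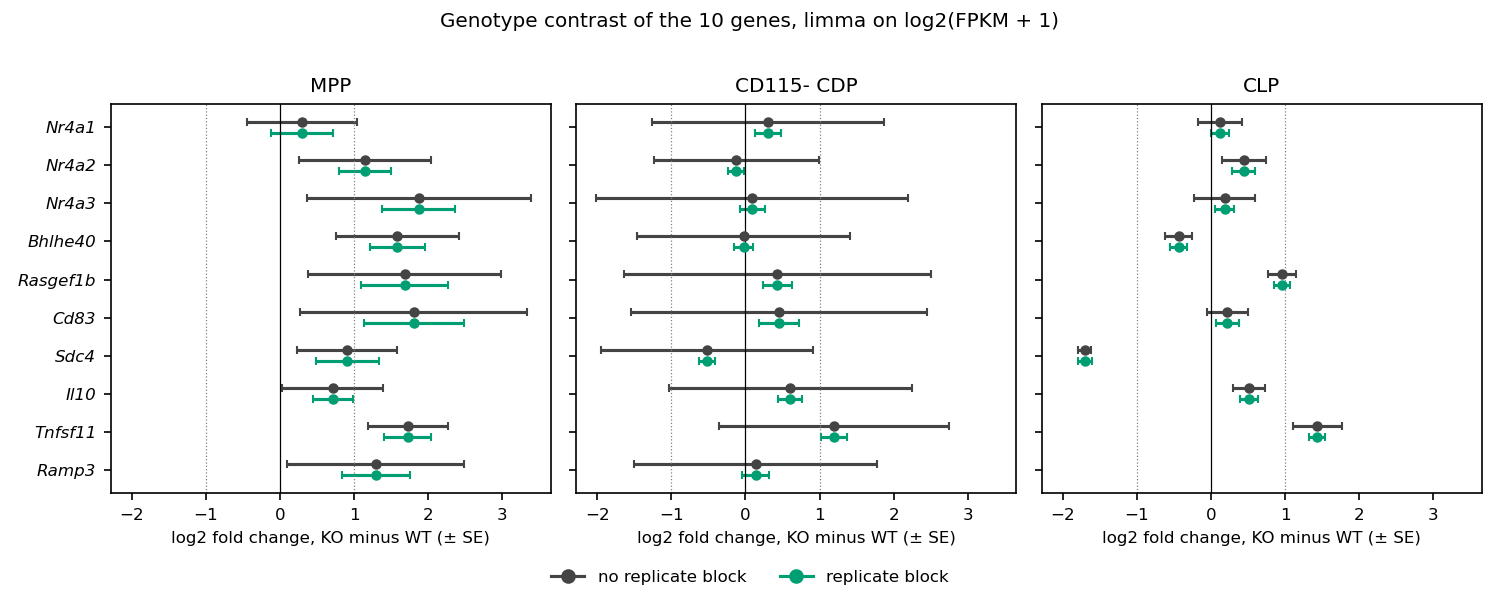
Log2 fold change of KO against WT libraries with its standard error for each of the 10 genes, from limma with 3 libraries of each genotype in each population, without (grey) and with (green) the replicate number as a block; dotted lines mark the fold limit of 1. The bars without the block are widest in CD115- CDPs, and Sdc4 in CLPs lies farthest below 0; Ramp3 was not tested in CLPs.

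KO libraries lay wholly above WT libraries for Tnfsf11 alone in MPPs (6.98% of all tested genes did), for 0 of 10 genes in CD115- CDPs (7.68%) and for Tnfsf11 and Rasgef1b in CLPs (15.3%). They lay wholly below WT for Sdc4 in CLPs (18.6%) and for 0 of 10 genes in MPPs (23.3%) and CD115- CDPs (10.6%). Whether the effect of genotype differed between populations was tested with an interaction term over the 18 libraries. In limma 0 of 10 genes passed at an adjusted p of 0.05, where 2.45% of 12421 genes did. An unadjusted p under 0.05 was found for 0 of the 10 and for 1959 of all genes. With an intercept for each number of each population Sdc4 (adjusted p 0.0156) and Bhlhe40 (adjusted p 0.0270) passed, where 8.67% of genes did. Without these intercepts their adjusted p were 0.561 and 0.670. The genes had been chosen for following the number, which these intercepts take out, and the numbers did not pair the MPP libraries. Sdc4 and Bhlhe40 both had a positive log2 fold change in MPPs, 0.91 and 1.58, and a negative one in CLPs.

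The genes most like the 10 were sought by the correlation of each gene's deviation from its population and genotype mean with the mean deviation of the 9 members that passed 0.5 FPKM in each population, over 18 libraries and 11668 genes. Members share these libraries and entered the mean, and had r of 0.969 (Tnfsf11) to 0.996 (Rasgef1b). The median r between pairs of members was 0.984 within MPPs, 0.993 within CD115- CDPs and 0.745 within CLPs. The 10 most similar other genes were Spata2, Sde2, Lmna, Itpkc, Zc3h12a, Ifrd1, Vps37b, Gpr132, Itprip and Rnf19b, with r of 0.988 to 0.995. Zc3h12a, an RNase that degrades inflammatory messages, had 161, 177 and 17.1 FPKM in WT CD115- CDPs and 167, 165 and 27.6 FPKM in KO. Lmna, which encodes lamin A and C, had 54.5, 115 and 2.07 FPKM in WT CD115- CDPs and 173, 218 and 5.87 FPKM in KO. As many as 764 of 11668 genes, or 6.55%, had an r of at least 0.9.

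Other signal-induced genes followed the number in part. Of 30 further activation-induced genes, 19 were lower by at least 1 on the log2 scale in number 3 than in the mean of numbers 1 and 2 in both genotypes of CD115- CDPs, where 4.78% of all genes were, and 16 of 26 with a value had r of at least 0.9. Icam1, an adhesion molecule, had 97.9, 160 and 19.0 FPKM in WT CD115- CDPs and 190, 204 and 21.1 FPKM in KO, and Nfkb2 and Tgif1 were similar (r of 0.977 and 0.976). The chemokine gene Ccl3 (r of -0.05) and the phosphatase gene Dusp2 (r of -0.53) did not follow. In the genotype contrast of MPPs these last 2 of 29 tested were called lower, where 1.32% of all genes were. Ccl3 had a log2 fold change of -1.33 (SE 0.0831, adjusted p 0.00182 in limma). In CD115- CDPs and CLPs 0 of the list were called. There 1 of 30 and 8 of 26 had an unadjusted p under 0.05 in limma, against 1288 of 12229 and 3655 of 12339 of all genes.

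Immediate early genes split, with 5 of 25 at an r of at least 0.9 and 3 at -0.5 or lower. Fosl1, Egr3 and Fosl2 followed the 10 (r of 0.974, 0.972 and 0.968), while Fos and Dusp1 ran against them (r of -0.88 and -0.77). Fos, the partner of Jun in AP-1, had 415, 162 and 1657 FPKM in WT CD115- CDPs and 337, 220 and 864 FPKM in KO, so that it was highest in number 3. In MPPs Fos was 2590, 2468 and 2721 FPKM in WT and 344, 207 and 1188 FPKM in KO libraries, low in the KO 1 and 2 libraries in which the NR4A genes were high. In MPPs 7 of these 25 had a called decrease in KO libraries and 0 an increase, where 1.32% of all genes were called lower and 0.162% higher. Egr1 led with a log2 fold change of -3.02 (SE 0.132, adjusted p 0.000568 in limma). In CD115- CDPs and CLPs 0 were called, with 3 of 25 at an unadjusted p under 0.05 in limma in each. Over all genes 1288 of 12229 and 3655 of 12339 were.

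**Figure D4:**
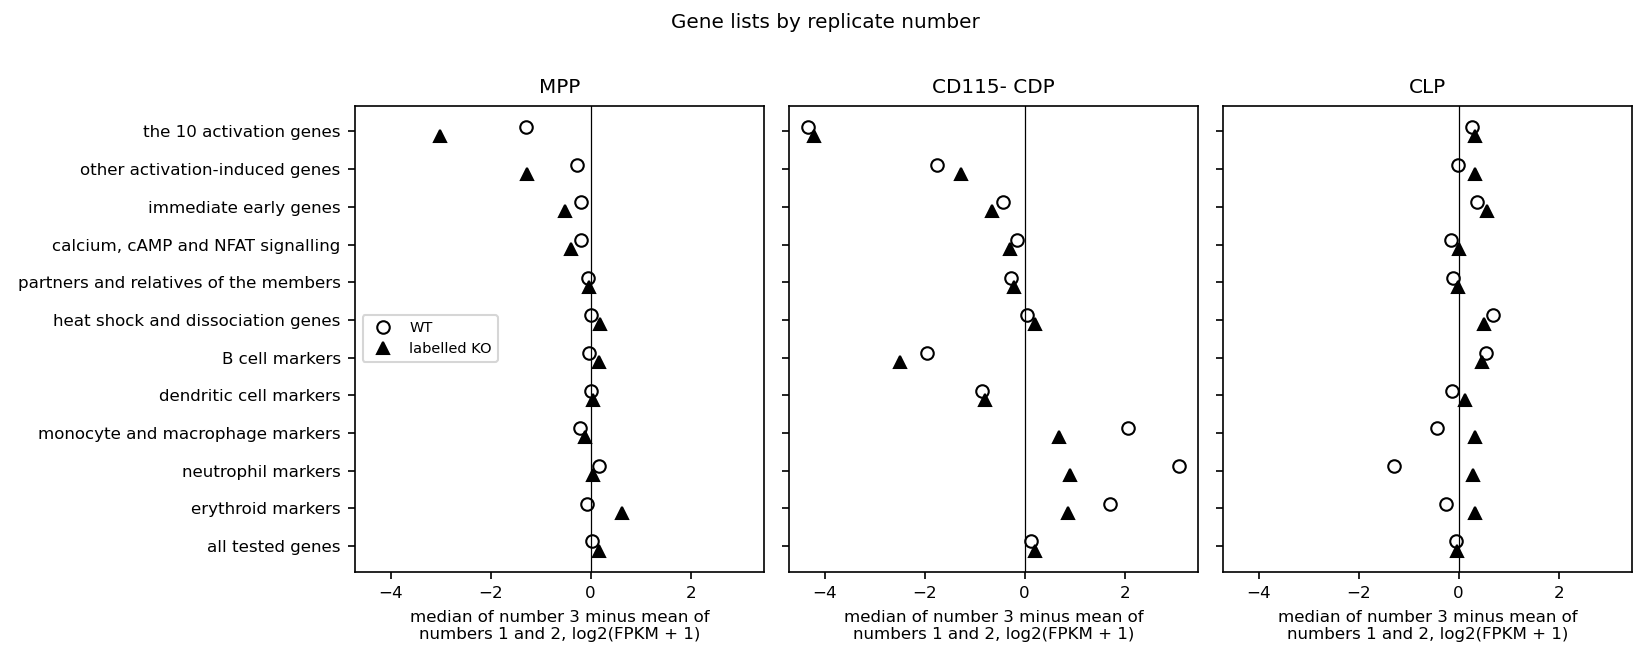
Median over the tested genes of each list of the value in replicate number 3 less the mean of numbers 1 and 2, on the log2(FPKM + 1) scale, for WT (circles) and libraries labelled KO (triangles) in each population. The 10 genes lie at -4.33 and -4.22 in CD115- CDPs and at 0.26 and 0.33 in CLPs, and neutrophil and monocyte markers lie above 0 in CD115- CDPs.

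Genes of calcium, cAMP and NFAT signalling were divided as well. The phosphodiesterase genes Pde4d and Pde4b and the cAMP-responsive repressor gene Crem had r of 0.982, 0.951 and 0.959, and Creb1 and the calcineurin inhibitor gene Rcan1 -0.83 and -0.82. Crem in CD115- CDPs was 7.80, 12.4 and 2 FPKM in WT and 13.7, 14.96 and 2.41 FPKM in KO. None of the 18 tested was called by genotype in any population, with 3, 2 and 7 at an unadjusted p under 0.05 in MPPs, CD115- CDPs and CLPs in limma. Over all genes 2999 of 12372, 1288 of 12229 and 3655 of 12339 were under 0.05.

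Of the partners and relatives of the 10, 3 of 21 were lower in number 3 by at least 1 in both genotypes of CD115- CDPs, where 4.78% of all genes were. Clock genes Per1 (r of 0.981) and Per2 (0.904) and Traf6 (0.962), an adaptor of the RANKL receptor, followed the number, and the Il10 receptor gene Il10rb ran against it (r of -0.95), with 20.4, 16.2 and 37.4 FPKM in WT and 13.2, 12.2 and 32.2 FPKM in KO CD115- CDPs. Tnfrsf11a, the receptor of RANKL, was at 0.18 to 0.70 FPKM in all libraries. Of the syndecan genes, Sdc1 and Sdc3 were called lower in KO CLPs beside Sdc4, 2 of the 21 genes tested, where 2.84% of all genes were. Sdc1 had 77.9, 61.3 and 64.7 FPKM in WT and 25.4, 24.5 and 23.9 FPKM in KO CLPs, a log2 fold change of -1.42 (SE 0.111, adjusted p 9.2e-05), and Sdc3 changed by -1.38 (SE 0.185, adjusted p 0.00177). In MPPs and CD115- CDPs 0 of the list were called, with 5 of 20 and 6 of 21 at an unadjusted p under 0.05 in limma. Over all genes 2999 of 12372 and 1288 of 12229 were.

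Of 9 heat shock and dissociation genes, Hspa1a and Hspa1b were higher by at least 1 in number 3 in both genotypes of CD115- CDPs and 0 were lower. Of all genes 2.48% were higher and 4.78% lower. The median over the list was 0.05 in WT and 0.21 in KO libraries. None of these genes was called by genotype, with 4, 3 and 3 at an unadjusted p under 0.05 in MPPs, CD115- CDPs and CLPs in limma. Over all genes 2999 of 12372, 1288 of 12229 and 3655 of 12339 were. In this list Hspa1a was 17.9, 8.68 and 380 FPKM in WT and 17.5, 5.63 and 233 FPKM in KO CD115- CDPs, high where the 10 genes were low. It was 221, 203 and 196 FPKM in WT and 10.7, 1.88 and 117 FPKM in KO MPPs, and 10.6, 449 and 789 FPKM in WT and 29.98, 358 and 1068 FPKM in KO CLPs. The summed FPKM of 7 neutrophil markers in CD115- CDPs was 449, 519 and 3196 in WT and 745, 556 and 2959 in KO libraries. Mpo, which encodes myeloperoxidase, was the most abundant of them in each KO library, with 332, 248 and 2117 FPKM, and Camp had 53.8, 43.0 and 57.9 FPKM there. In both genotypes 3 of the 7 were higher in number 3 by at least 1, where 2.48% of all genes were. The 6 monocyte and macrophage markers with a value summed to 116, 108 and 1074 FPKM in WT and 107, 93.3 and 194 FPKM in KO CD115- CDPs. Sums of the 7 B cell markers ran the other way. They were 125, 159 and 59.1 FPKM in WT and 188, 143 and 41.8 FPKM in KO. Of 6 tested, 5 were lower in number 3 by at least 1 in both genotypes, where 4.78% of all genes were. Cd79b was not, with 17.7, 20.4 and 31.7 FPKM in WT and 30.3, 26.5 and 27.7 FPKM in KO. Among dendritic cell markers Fscn1, Ccr7 and Siglech had r of 0.975, 0.800 and 0.728, and Itgax and Cd209a had r of -0.531 and -0.623. Sums of 9 such markers in CD115- CDPs were 132, 116 and 94.1 FPKM in WT. In KO they were 37.9, 45.7 and 13.3 FPKM. The sums of 7 NK and ILC markers were 10.5, 15.6 and 6.49 FPKM in WT and 14.1, 13.8 and 3.49 FPKM in KO, and those of 7 erythroid markers 6.62, 11.5 and 36.2 FPKM in WT and 6.98, 11.5 and 23.3 FPKM in KO. Basophil and mast cell markers summed to 57.0 to 169 FPKM in WT and 27.2 to 151 FPKM in KO, and stromal and endothelial markers to at most 4.42 FPKM. Sums of T cell markers ranged from 46.9 to 54.1 FPKM in WT and 28.7 to 59.96 FPKM in KO CD115- CDPs. Csf1r, which encodes the CD115 that the sort of CD115- CDPs leaves out, was 57.0, 39.1 and 137 FPKM in WT and 11.5, 9.24 and 37.2 FPKM in KO libraries. The gate genes Kit, Cd34 and Ly6a (r of -0.78, -0.88 and -0.66) were also highest in number 3 of CD115- CDPs. The gate genes Flt3 and Il7r went the other way and were lowest there in both genotypes. Flt3 was 240, 233 and 147 FPKM in WT and 204, 190 and 171 FPKM in KO CD115- CDPs. Il7r was 20.6, 13.9 and 5.34 FPKM in WT and 11.3, 8.21 and 3.17 FPKM in KO. In MPPs, by contrast, the neutrophil sum was 2585, 2682 and 2712 FPKM in WT and 1822, 1059 and 1177 FPKM in KO, and the B cell sum 45.4, 46.4 and 48.9 FPKM in WT and 27.8, 19.0 and 37.5 FPKM in KO. The erythroid sum in MPPs was 388, 362 and 358 FPKM in WT and 31.9, 47.4 and 57.7 FPKM in KO, with 6 of 7 markers called lower, where 1.32% of all genes were. Monocyte and macrophage markers in MPPs summed to 445 to 465 FPKM in WT and 127 to 183 FPKM in KO, with 3 of 5 tested called lower against the same 1.32%. The part of these transcripts in the number pattern or in the MPP genotype differences was not tested.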

How the data were processed

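Poly(A) RNA-seq was analysed for 3 libraries of each genotype in each of the 3 sorted populations. Per the labels and methods, reads (single-end, 50 bases) were filtered by the authors and mapped with Bowtie2 2.2.5 for expression (HISAT2 2.0.4 and mm10 served the genome alignments) and genes were quantified with RSEM 1.2.12; the deposited values are FPKM rounded to 2 decimals. Read counts were not used here, so the count tests of the study were not repeated. Depth was estimated from the steps between low FPKM values, and whole reads could not be recovered for every gene.

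The test was limma 3.58.1 (R 4.3.3; lmFit, then eBayes allowing a mean-variance trend), run on log2(FPKM + 1) in 1 population at a time for genes averaging 0.5 FPKM or more, and p-values were adjusted over every tested gene by the Benjamini-Hochberg method. The interaction of population and genotype was an F test over 18 libraries. Both were tested on simulated data with noise independent between genes and between libraries. The simulation held no shared shift by replicate number, so it does not cover that feature of these data. The replicate numbers come from the labels. Deviations of same-numbered WT and KO libraries correlated at 0.437, 0.671 and 0.790 in CD115- CDPs and 0.400, 0.329 and 0.131 in CLPs. By these values the numbers were taken to pair the samples there. Some differently numbered libraries correlated as well or better: WT 2 with KO 1 at 0.663 in CD115- CDPs, and WT 3 with KO 2 at 0.234 in CLPs. The pairing of single numbers is thus uncertain. Replicates of a group differed by more than counting noise, with WT MPPs 1 and 2 the closest (3.53 times that noise). Promoter windows were those of RefSeq (GRCm38.p6), matched for 7 of the 10 genes; the CArG box and NF-kB motifs were searched on both strands as were the others.

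The members, gene lists and tests were chosen with earlier results of these data known. The rule for naming covered the 10, Trim33 and the 10 genes most like them. From each list it covered the 3 highest and 2 lowest by correlation and the called gene with the largest fold change. Not every gene under this rule was named, and any further gene was named after seeing its values. Alternatives were a pseudocount of 0.1, no filter, a filter at 5 FPKM, rescaling to TPM, median ratio scaling, quantile normalization, no trend, the replicate block, other thresholds and each library left out; leaving out a replicate number in both genotypes was added after seeing the data. Python 3.11.15, pandas 2.3.3 and numpy 2.4.6 were used.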

Additional observations from a re-analysis of the deposited data

Results flagged for a closer look

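Bhlhe40 differed by genotype in opposite directions within same-numbered pairs. KO exceeded WT in 3 of 3 pairs of MPPs and lay below WT in 3 of 3 pairs of CLPs. Neither contrast was called, with limma adjusted p of 0.273 in MPPs and 0.144 in CLPs, and the genotypes overlapped in both. The test of whether populations differ in the genotype effect gave Bhlhe40 a limma adjusted p of 0.0270 with the replicate block. Without the block it was 0.670.

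Sdc4 also differed between populations in that test, with an adjusted p of 0.0156, and 0.561 without the block. It was higher in KO in 2 of 3 pairs of MPPs and lower in 3 of 3 pairs of CD115- CDPs and of CLPs. The replicate numbers did not meet the rule for pairing in MPPs, which enter both tests. Both genes were chosen for following the number, and the block takes out that variation.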

How the results depend on the processing

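Sdc4 in CLPs kept its call under all alternatives, with 1 gene called lower in each. The number of the 10 genes called higher in MPPs (0) ranged from 0 to 10 when 1 library was left out, with 10 only without KO 3, and was 9 without number 3 of both genotypes. Both of these fits leave out number 3 values, for which the genes were chosen. In CD115- CDPs (0) the number called higher was 1 with the replicate block and 1 without number 3 of both genotypes. In CLPs (1) it was 0 without a filter on expression and without number 3 of both genotypes, 2 with a pseudocount of 0.1, with no minimum fold change and without number 2 of both genotypes, and 0 to 2 with 1 library left out. In the interaction test (0) the replicate block gave 2 genes. The replicate numbers share only a number in MPPs, where same-numbered deviations correlated at 0.038, 0.482 and 0.472: with the block 0 of the 10 genes were called there and 8 had an unadjusted p under 0.05, as did 3704 of all 12372 genes.

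The spread of the 10 genes over replicate numbers in CD115- CDPs (4.39 on the log2 scale) was 5.48 with a pseudocount of 0.1, 4.82 after rescaling to TPM and 4.27 to 4.82 with 1 library left out. Log2 fold changes that changed sign did so as follows. Without number 1 of both genotypes those of Nr4a3 and Ramp3 in CD115- CDPs were -0.0024 and -0.12. Without number 2, Nr4a1 in MPPs was -0.091. Without number 3, Trim33 in MPPs was 0.047, Nr4a3 and Bhlhe40 in CD115- CDPs were -0.057 and 0.13, and Nr4a1 in CLPs was -0.012. Bhlhe40 in CD115- CDPs was 0.021 with median ratio scaling. Leaving out 1 library gave -0.19 to 1.23 for Nr4a1 and -0.45 to 0.12 for Trim33 in MPPs, and in CLPs -0.13 to 0.42 for Nr4a1, -0.24 to 0.56 for Nr4a3 and -0.040 to 0.52 for Cd83. In CD115- CDPs it gave -1.22 to 1.598 for Nr4a1, -1.17 to 0.83 for Nr4a2, -1.88 to 1.91 for Nr4a3, -1.11 to 2.42 for Cd83, -0.95 to 1.99 for Il10, -0.16 to 2.62 for Tnfsf11, -1.58 to 2.14 for Rasgef1b, -1.23 to 1.34 for Bhlhe40, -1.80 to 0.78 for Sdc4 and -1.23 to 1.65 for Ramp3, and each lowest or highest value there came from leaving out a number 3 library. The cause of these changes was not tested. The median log2 fold change of all genes moved from -0.11 to -0.01 in MPPs with median ratio scaling and from -0.07 to -0.19 in CD115- CDPs with TPM. Leaving out number 1, 2 or 3 of both genotypes was chosen after seeing the data. At 3 libraries a genotype, and with few reads behind Ramp3, Il10 and Tnfsf11 in number 3, small differences were not detectable.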
